A study of Homo sapiens with 24 samples.

Results

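The aryl hydrocarbon receptor genes are AHR, the ligand-activated receptor, ARNT, its DNA-binding partner, AHRR, a repressor that competes with the receptor for ARNT, and 4 genes that are read as its targets, TIPARP, CYP1A1, CYP1A2 and CYP1B1. The group is defined by what these 7 genes encode, and 6 of them had a transcript cluster (probes that together read a locus) annotated to that symbol alone, out of 18417 genes with such a cluster. AHRR lies only in a cluster shared with PDCD6, so no value is given for it. The receptor waits in the cytosol with HSP90 and other chaperones. On binding a planar aromatic ligand, such as a dioxin, a smoke hydrocarbon or a tryptophan metabolite, it enters the nucleus, pairs with ARNT and binds short elements near its targets. In airway epithelium it is best known for inducing the CYP1 enzymes, which activate the hydrocarbons of tobacco smoke.

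RNA came from 4 human non-small cell lung cancer lines that carry mutant K-ras. H2009 and H441 are dependent on K-ras for survival, and A549 and H460 are not. Each line stably expressed a scrambled shRNA (δscr) or the shRNA δ193 against PKCδ, a serine/threonine kinase, from a lentiviral pLKO vector under puromycin selection, with 3 biological replicates per group and 24 Affymetrix gene arrays in all. Both arms of a comparison therefore carry a vector and differ in 1 hairpin, and δ193 is the only PKCδ shRNA on the arrays, so that effects of its sequence on other genes and depletion of PKCδ cannot be told apart. An array reads all cells of a culture together, so fewer cells with a transcript and less transcript per cell cannot be told apart either.

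Values are the deposited log2 RMA values (RMA corrects background, equalizes the arrays and summarizes probes). PRKCD, which encodes PKCδ, was lower with δ193 in every line, with changes from -1.26 in A549 to -2.40 in H441 (SE 0.20; limma, adjusted p at most 0.000325). KRT7, KRT8 and KRT18, keratins of simple epithelium, lay between 10.80 and 12.60 on all arrays. The other epithelial markers varied between lines. KRT19 had means of 10.75, 8.59, 5.11 and 7.30 in H2009, H441, A549 and H460, CDH1 of 11.08, 5.81, 8.79 and 5.25, and EPCAM of 11.03, 5.71, 4.91 and 5.44. NKX2-1, NAPSA, SFTPB and SFTPC, which define lung epithelium, lay between 3.41 and 5.90 in all 4 lines, including the arrays labelled H441. The median of all gene means was 5.79. Of the leukocyte, fibroblast and endothelial markers, CD68 at 9.15 to 10.72 and COL1A1 at 5.82 to 6.90 exceeded that median on all arrays, CD79A reached 5.82 at its highest, and the other 8 were below it. Spread between replicates was greatest in H441, with a median residual SD of 0.184 against 0.0923 to 0.117 elsewhere, and δ193 replicates 2 and 3 of H441 stood farthest from the fit (array weights 0.227 and 0.165, where a typical array has 1). Results that rest on H441 are therefore also given without it.

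Promoter sequences show where the receptor's letters lie next to these genes. RefSeq windows (GRCh38.p14) from 250 bases before to 50 after the transcription start were at hand for 6 of the 7 genes, all but CYP1B1. The core of the xenobiotic response element, GCGTG, was searched on both strands. The same letters occur in the hypoxia element that ARNT binds with HIF1A, and the longer form TNGCGTG contains them. The first 2 sequences are the neighbours CYP1A1 (minus strand, chr15:74725479-74725778) and CYP1A2 (plus strand, chr15:74748595-74748894), which lie head to head on chromosome 15 and of which only the first had called changes. The third is the first of 3 windows of TIPARP (plus strand, chr3:156674340-156674639). Each is written 5′ to 3′ on the strand of its gene, and capitals mark GCGTG or its complement CACGC.
CYP1A1: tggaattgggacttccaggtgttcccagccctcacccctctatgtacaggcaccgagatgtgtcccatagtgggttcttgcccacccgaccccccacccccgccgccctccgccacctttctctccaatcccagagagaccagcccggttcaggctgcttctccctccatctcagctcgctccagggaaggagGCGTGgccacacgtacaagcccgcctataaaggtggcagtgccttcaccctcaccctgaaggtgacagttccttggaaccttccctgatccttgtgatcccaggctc
CYP1A2: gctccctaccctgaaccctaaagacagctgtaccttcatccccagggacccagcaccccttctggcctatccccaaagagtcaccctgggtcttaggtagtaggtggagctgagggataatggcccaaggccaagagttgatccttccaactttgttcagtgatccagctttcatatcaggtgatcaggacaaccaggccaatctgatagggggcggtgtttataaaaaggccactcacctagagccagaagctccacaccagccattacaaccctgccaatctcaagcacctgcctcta
TIPARP: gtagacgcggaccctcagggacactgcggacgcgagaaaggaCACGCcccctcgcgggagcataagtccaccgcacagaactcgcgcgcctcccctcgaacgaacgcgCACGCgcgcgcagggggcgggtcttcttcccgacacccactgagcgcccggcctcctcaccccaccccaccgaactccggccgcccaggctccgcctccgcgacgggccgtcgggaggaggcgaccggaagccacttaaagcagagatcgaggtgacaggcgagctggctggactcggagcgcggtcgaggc
The CYP1A1 window holds the core once, 57 bases before the start. The TIPARP window holds it at 2 positions, starting 208 and 142 bases before the start on the opposite strand, and the other windows of TIPARP do not hold it. AHR (plus strand, chr7:17298402-17298701) holds it 37 bases after its start, both AHRR windows hold it, and the windows of CYP1A2 and ARNT do not. Of 35116 windows of this length over all genes, 36.5% hold the core and 12.7% hold it at 2 or more positions, and the longer form, present in 5.51% of all windows, occurred here only in AHRR. A match is a description of these letters and not a bound site, and elements farther from the start were not examined.

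**Figure D1:**
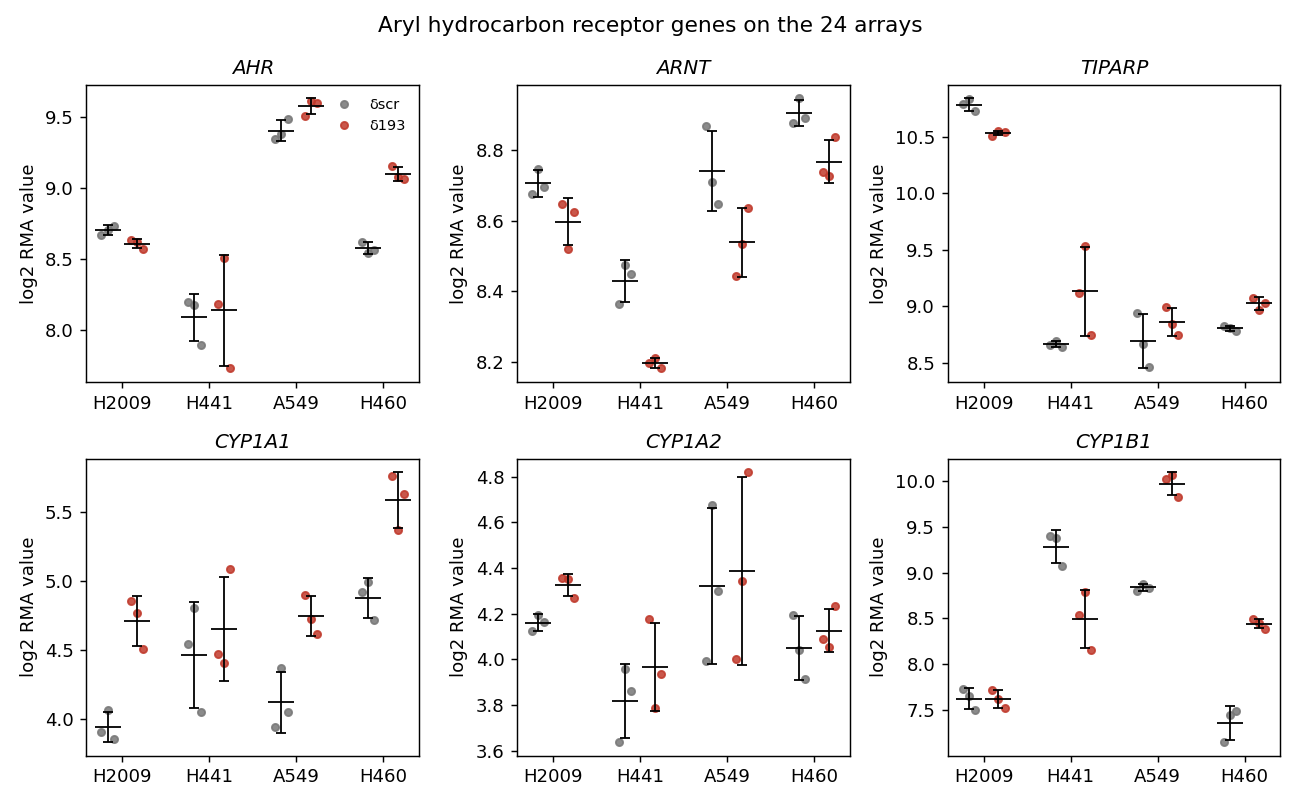
Log2 RMA values of the 6 measured genes (vertical axis, 1 panel per gene with its own scale) in the 4 lines (horizontal axis), with δscr in grey and δ193 in red. Points are single arrays, and black bars give the mean and SD of 3. CYP1B1 separates the arms upward in A549 and H460 and downward in H441, CYP1A1 upward in 3 lines, and ARNT lies lower with δ193 in all 4.

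With PKCδ depleted, the largest called changes were those of CYP1B1 and CYP1A1, and CYP1A2 had none. CYP1A1, the monooxygenase that serves as the classic readout of receptor activity, rose in H2009, A549 and H460. CYP1B1, its relative that hydroxylates estrogens and procarcinogens, rose 2.19 fold in A549 and 2.11 fold in H460 and fell in H441. A change was called where limma gave an adjusted p under 0.05 over all 18417 genes and a size of at least 0.32 on the log2 scale, the study's minimum fold. Among the 6 genes, H2009 had 1 called change, H441 and A549 each had 2, and H460 had 3. Over all genes, H2009 had 2.66% called higher and 2.25% lower, H441 7.09% and 7.22%, A549 2.05% and 2.58%, and H460 2.01% and 3.44%. The median log2 change of the 6 genes was -0.05, 0.10, 0.17 and 0.37 for H2009, H441, A549 and H460, against 0.014, 0.0015, 0.0055 and 0.013 over all genes. All δ193 arrays lay above all δscr arrays for 2, 1, 3 and 4 of the 6 genes in the same order of lines, as they did for 13.8%, 10.7%, 12.4% and 16.1% of all genes. They lay below for 3, 2, 1 and 1 of the 6, and for 12.1%, 10.6%, 11.7% and 18.1% of all genes.

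The receptor itself, AHR, was expressed well above the median gene on every array. In H460 its δscr arrays read 8.62, 8.54 and 8.57 and its δ193 arrays 9.15, 9.08 and 9.06. The arms did not overlap, and AHR rose by 0.52 on the log2 scale, a fold of 1.44 (SE 0.12, 95% confidence interval 0.27 to 0.78, adjusted p = 0.0105 from limma). Without δ193 replicate 1 of H460 the change was 0.49 and no longer passed (adjusted p = 0.0536). In A549, δscr read 9.34, 9.38 and 9.49 and δ193 9.51, 9.61 and 9.60, which do not overlap, but the change of 0.17 (SE 0.12) did not pass. In H2009 the δ193 arrays (8.64, 8.62 and 8.57) lay below those of δscr (8.67, 8.71 and 8.74), with a change of -0.10 that did not pass either. H441 gave the widest spread, with δscr at 8.19, 8.18 and 7.90 and δ193 at 8.18, 8.51 and 7.73, so that the arms overlapped.

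ARNT, which the receptor shares with HIF1A and other PAS proteins, was the steadiest of the 6 genes, and its values lay between 8.18 and 8.95 on all 24 arrays. In H2009 its δscr arrays read 8.67, 8.75 and 8.70 and its δ193 arrays 8.65, 8.52 and 8.62. In H441 they read 8.36, 8.47 and 8.45 against 8.20, 8.21 and 8.18. The pattern of a slightly lower δ193 arm without overlap recurred in A549 (8.87, 8.71 and 8.65 against 8.44, 8.53 and 8.64) and in H460 (8.88, 8.95 and 8.89 against 8.74, 8.73 and 8.84). Of all genes, 0.695% were lower without overlap in all 4 lines. The size was small, from -0.11 in H2009 to -0.23 in H441 (SE 0.08). The H441 change had an adjusted p of 0.0381 but a fold of 1.18, under the minimum, and no other line passed the adjusted threshold.

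TIPARP encodes a mono-ADP-ribosyltransferase that is induced by the receptor and in turn represses it. In H441 its δscr arrays were tightly grouped at 8.66, 8.69 and 8.64, and its δ193 arrays were spread at 9.12, 9.54 and 8.75. The arms did not overlap and TIPARP rose by 0.47 (SE 0.13, interval 0.19 to 0.74, adjusted p = 0.0165 from limma). That call rests on the spread shared by all lines, since with H441 fitted alone the adjusted p was 0.245, and without δ193 replicate 2 the change was 0.27 (adjusted p = 0.113). H2009 showed the opposite sign with little spread, 10.79, 10.84 and 10.73 in δscr against 10.51, 10.55 and 10.54 in δ193, a change of -0.25 that did not pass (adjusted p = 0.368). In H460 the δ193 arrays (9.08, 8.97 and 9.03) lay above those of δscr (8.83, 8.81 and 8.78) by 0.22, and in A549 the arms overlapped, and neither change passed.

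CYP1A1 lay below the median gene on every array, and its highest value was 5.76. In H2009 its δscr arrays read 3.90, 4.06 and 3.85 and its δ193 arrays 4.85, 4.77 and 4.51, and it rose by 0.77, a fold of 1.71 (SE 0.18, adjusted p = 0.00913 from limma). In H460, δscr at 4.92, 4.996 and 4.72 stood against δ193 at 5.76, 5.37 and 5.63, a rise of 0.71 (adjusted p = 0.0148), and in A549 3.94, 4.36 and 4.05 stood against 4.90, 4.73 and 4.62, a rise of 0.63 (adjusted p = 0.0388). In these 3 lines no δ193 array fell to the level of a δscr array. H441 was the exception, with overlapping arms at 4.54, 4.80 and 4.05 for δscr and 4.47, 4.40 and 5.09 for δ193 and a change of 0.19 (interval -0.18 to 0.55). The call in each of these lines rested on few arrays. Leaving out 1 array gave adjusted p up to 0.0527 in H2009 (without δ193 replicate 1), 0.0911 in H460 (without δscr replicate 3, δ193 replicate 1 or δ193 replicate 3 the call was lost) and 0.173 in A549 (lost without any of its arrays but δscr replicate 2). The direction held in all of these fits. Quantile normalization over the genes tested also took the calls in A549 (0.0588) and H460 (0.0511), as did a block for the replicate number (0.103 and 0.0522).

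CYP1A2, the enzyme that clears caffeine and is made chiefly in liver, read between 3.64 and 4.82 on the 24 arrays. It was the only CYP1 gene with no called change. Its largest change was 0.16 in H2009, where the δscr arrays (4.12, 4.20 and 4.16) and the δ193 arrays (4.35, 4.35 and 4.27) did not overlap, with an interval of -0.17 to 0.50. In the other 3 lines the arms overlapped, and the upper bounds of the intervals were 0.48 in H441, 0.40 in A549 and 0.41 in H460.

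CYP1B1 gave the largest changes of the 6 genes, in opposite directions. In A549 it rose from 8.80, 8.88 and 8.84 with δscr to 10.02, 10.06 and 9.82 with δ193, a change of 1.13 and a fold of 2.19 (SE 0.13, interval 0.86 to 1.39, adjusted p = 3.59e-06 from limma). In H460 it rose from 7.15, 7.45 and 7.49 to 8.49, 8.45 and 8.39, a change of 1.08 and a fold of 2.11 (adjusted p = 4.68e-06). The arms were separated in both lines by several times the spread between replicates. In H441 it fell from 9.40, 9.38 and 9.07 to 8.53, 8.78 and 8.16, a change of -0.79 and a fold of 1.73 (adjusted p = 0.000119), again without overlap. H2009 stood apart from all 3, with 7.73, 7.65 and 7.50 in δscr and 7.72, 7.62 and 7.53 in δ193. The H2009 change was 0.00 with an interval of -0.27 to 0.26, so that a change of the size seen in the other lines lies outside it. The 3 called changes kept their call when any 1 array was left out, with values of 1.08 to 1.20 in A549, 0.97 to 1.14 in H460 and -0.94 to -0.62 in H441. H441 fitted alone gave an adjusted p of 0.0499.

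**Figure D2:**
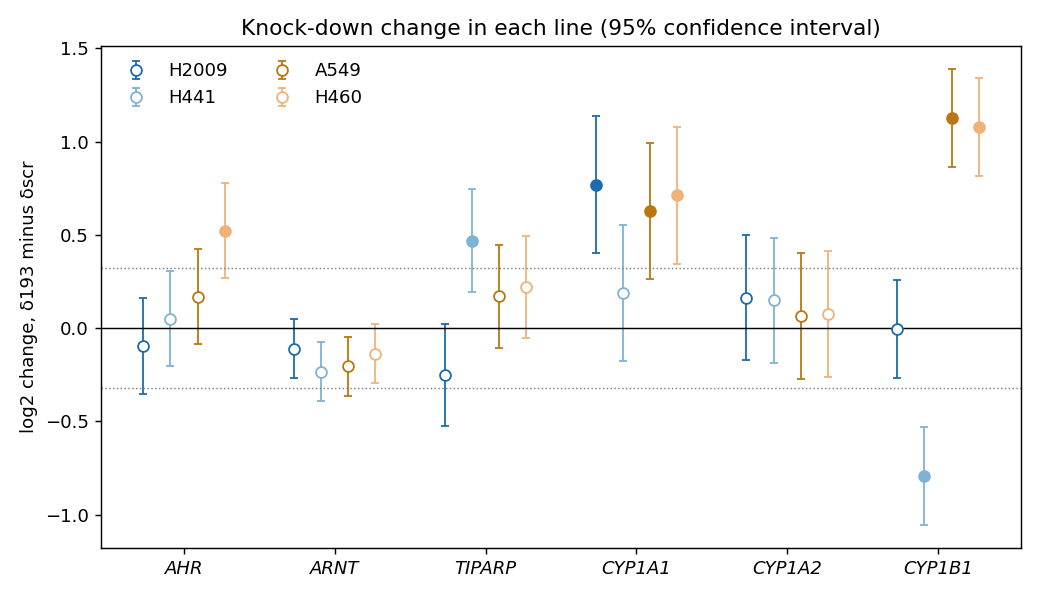
Log2 change with δ193 (vertical axis, δ193 minus δscr) of each gene (horizontal axis) in the 4 lines, with 95% confidence intervals from the fit over 24 arrays. Filled points passed the adjusted threshold and the minimum size (dotted lines at 0.32 and -0.32), and open points did not; CYP1B1 spans from -0.79 in H441 to 1.13 in A549, while the 4 CYP1A1 changes lie between 0.19 and 0.77.

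Within the δ193 group of H441, the 3 arrays ranked alike for several genes. Replicate 2 was the highest and replicate 3 the lowest for AHR, TIPARP and CYP1B1. For CYP1A1 the order differed, and replicate 3 was the highest. PRKCD was lowest in replicate 2, at 4.68, and highest in replicate 3, at 6.00, and the part that the depth of knock-down plays in these values was not tested.

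Averaged over the 4 lines, CYP1A1 rose by 0.57 (SE 0.09, interval 0.39 to 0.76, adjusted p = 6.21e-05 from limma) and CYP1B1 by 0.35 (SE 0.06, adjusted p = 0.000365), 2 of the 6 genes, while 1.49% of all genes were called higher and 2.14% lower. Without H441 the means were 0.70 and 0.73, and both passed. The CYP1B1 mean averages a fall and 2 rises, and without δ193 replicate 2 of H441 it was 0.32, just under the minimum size. ARNT had a mean of -0.17 with an adjusted p of 0.0029 and a fold of 1.13, so it was not called. AHR at 0.16 (adjusted p = 0.0837), TIPARP at 0.15 and CYP1A2 at 0.11 did not pass.

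Whether the lines responded alike was tested on the changes themselves. For CYP1B1 they differed (F = 53.03 over the 4 changes, adjusted p = 1.31e-07 from limma). It was the only one of the 6 genes past the threshold, and 14.1% of all genes passed. AHR (F = 4.56, adjusted p = 0.073) and TIPARP (F = 5.05, adjusted p = 0.0544) lay just outside it. CYP1A1 did not pass (F = 2.23, adjusted p = 0.306), nor did ARNT and CYP1A2, at adjusted p of 0.803 and 0.982. Over the 3 changes left without the H441 arrays, CYP1B1 (F = 48.53), AHR (F = 26.12) and TIPARP (F = 7.66) all passed, with adjusted p of 1.14e-05, 0.000291 and 0.0326. The 14.1% belongs to the test over 4 changes, and the share of all genes that pass without H441 was not computed.

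The K-ras dependent lines differed from the independent ones for CYP1B1 alone among the 6 genes. The mean change in H2009 and H441 minus that in A549 and H460 was -1.499 (SE 0.13, interval -1.76 to -1.24, adjusted p = 1.81e-07 from limma), and 4.99% of all genes passed this test. The pair of dependent lines was not uniform, since CYP1B1 fell in H441 and had a change of 0.00 in H2009. With H2009 as the only dependent line the difference was -1.10 (adjusted p = 9.18e-06). AHR had a class difference of -0.37 that did not pass (adjusted p = 0.0931) over 4 lines, and one of -0.44 that did (0.00115) without H441. TIPARP had -0.09 over 4 lines (adjusted p = 0.812) and -0.45 (0.0217) without H441. The 4.99% belongs to the test over 4 lines, and the share of all genes that pass without H441 was not computed. With 2 lines per class, what belongs to the class and what to a single line cannot be told apart.

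Among the 6 pairs of lines, the CYP1B1 change differed in 5. The largest gaps set H441 against A549 (-1.92) and H460 (-1.87), with H2009 between them at 0.79 above H441 and 1.13 and 1.08 below A549 and H460 (SE 0.18, largest adjusted p = 0.0082). A549 and H460 gave changes within 0.05 of each other, with an interval of -0.32 to 0.42. TIPARP differed between H2009 and H441 (-0.72, adjusted p = 0.0204) and AHR between H2009 and H460 (-0.62, adjusted p = 0.0452). The AHR difference was lost in 17 of the 24 fits that left out 1 array. Pairs H2009 and H441, H2009 and A549, H2009 and H460, H441 and A549, H441 and H460, and A549 and H460 thus had 2, 1, 2, 1, 1 and 0 of the 6 genes past the threshold, where 7.12%, 3.51%, 4.21%, 9.40%, 4.83% and 4.63% of all genes were.

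**Figure D3:**
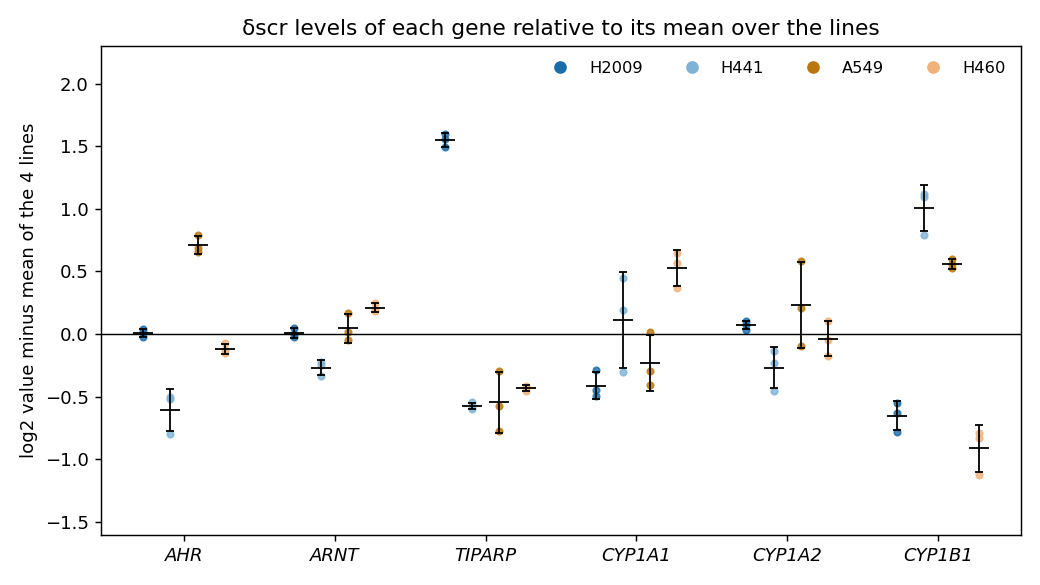
Log2 values of the δscr arrays (vertical axis, minus the mean of the 4 lines for that gene) for each gene (horizontal axis) and line, with points for single arrays and bars for the mean and SD of 3. TIPARP stands alone in H2009, CYP1B1 is high in H441 and A549, and AHR is highest in A549 and lowest in H441.

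The starting levels of these genes differed widely between the lines. AHR in δscr cells was highest in A549 (9.40 ± 0.07, SD, n = 3), lower in H2009 (8.70 ± 0.03) and H460 (8.58 ± 0.04), and lowest in H441 (8.09 ± 0.17). H2009 and H460 did not pass the test of their difference (0.13, interval -0.13 to 0.38), and the other 5 pairs did, by 0.49 to 1.31 in size (adjusted p at most 0.00201 from limma). With quantile normalization the AHR difference between H441 and H460 was -0.28 and its call was lost (adjusted p = 0.0996). ARNT ran from 8.91 ± 0.04 in H460 through 8.74 ± 0.11 in A549 and 8.71 ± 0.04 in H2009 to 8.43 ± 0.06 in H441, and only H460 against H441 passed both the adjusted threshold and the fold (0.48). With quantile normalization that ARNT difference, H441 minus H460, was -0.26, under the minimum size.

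TIPARP stood at 10.79 ± 0.06 in H2009, 3.94 to 4.35 fold above the other lines. H460 (8.81 ± 0.02), A549 (8.69 ± 0.24) and H441 (8.67 ± 0.03) did not differ from each other beyond their spread. H2009 was higher by 2.12 than H441, by 2.09 than A549 and by 1.98 than H460 (adjusted p at most 1.69e-11 from limma). CYP1B1 was highest in H441 (9.28 ± 0.18), then A549 (8.84 ± 0.04), then H2009 (7.63 ± 0.12) and H460 (7.37 ± 0.18). H2009 and H460 did not pass (0.26, adjusted p = 0.115), and all other pairs did, including H441 against A549 by 0.44 (adjusted p = 0.00484). The lines with the higher δscr level therefore include one in which CYP1B1 fell, H441, and one in which it rose, A549.

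CYP1A1 was highest in H460 (4.88 ± 0.14), followed by H441 (4.46 ± 0.38), A549 (4.12 ± 0.22) and H2009 (3.94 ± 0.11). H460 exceeded H2009 by 0.94 and A549 by 0.76, and H441 exceeded H2009 by 0.52 (adjusted p at most 0.0148 from limma), while neighbours in this order did not pass. CYP1A2 ran from 4.32 ± 0.34 in A549 to 3.82 ± 0.16 in H441, the only pair called (0.50, adjusted p = 0.0113). The CYP1A2 call was lost without δscr replicate 2 of A549 (H441 minus A549 -0.33, adjusted p = 0.107) and without δscr replicate 1 of H441 (adjusted p = 0.0601), and that of CYP1A1 in H441 over H2009 without δscr replicate 2 of H441 (H2009 minus H441 -0.35, adjusted p = 0.113). Of the 6 genes, 4 were called for H2009 against H441, 3 for H2009 against A549, 2 for H2009 against H460, and 3 for each of the remaining pairs. Lines differ at many genes, and the share called over all genes was 49.3%, 41.4% and 35.5% for the first 3 pairs, 48.4% for H441 against A549, 45.4% for H441 against H460 and 38.9% for A549 against H460.

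Across the 24 arrays, the genes that most resembled each member are given as a description. The points share cell lines, so a high Pearson r can reflect 1 line. TIPARP followed BMAL2 (r = 0.98), itself a PAS family partner of CLOCK, then ZIK1, COMMD2, ELAPOR2 and ZNF560, all at 0.97. AHR followed MYADM (0.96), PLCB4, ANKRD13C-DT, CD44 and DEDD2 (0.93 or 0.94). CYP1B1 followed ATP1B1 (0.91), SIPA1L2, NHERF2, LRP11 and THSD4, and CYP1A1 followed SLC9A2 (0.83), ANKRD52, PDE10A, SPATA13 and ATG4D. Among the members themselves, AHR had an r of 0.06 with CYP1A1, 0.38 with CYP1B1 and -0.12 with TIPARP.

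After each line's mean was taken off, which leaves the knock-down change and the replicate spread, the resembling genes were different ones. AHR then followed CDCP1 (0.92), NT5E, PLAUR, SLC38A2 and ANTXR2, of which CDCP1 and PLAUR encode surface proteins and NT5E the ectoenzyme that makes adenosine. TIPARP followed JAG1 (0.88), a Notch ligand, and FBXL13, TNFRSF12A, RND3 and SPATA45. CYP1A1 followed NOTCH3 (0.84), TBCCD1, CNN2, PNMA1 and GBE1, and CYP1B1 followed EDIL3 (0.90), SLC12A8, AHCYL2, RAB27B and ETHE1. Between members, AHR had an r of 0.66 with CYP1B1, 0.60 with TIPARP, 0.28 with CYP1A1 and 0.07 with CYP1A2. CYP1A1 had an r of 0.49 with CYP1B1, 0.02 with TIPARP and -0.62 with ARNT, and TIPARP had an r of 0.16 with CYP1B1.

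The wider pathway was described from lists of 77 further genes, of which 63 were measured. H2009 had 4 of them called higher and 1 lower, H441 had 4 and 7, A549 had 5 and 0, and H460 had 4 and 5. Over all genes the shares were 2.66% and 2.25%, 7.09% and 7.22%, 2.05% and 2.58%, and 2.01% and 3.44%. None of the 11 calls in H441 held with that line fitted alone, where 0 of the 63 genes passed. Far fewer genes were called there in general, 401 of 18417, against 1306 higher and 1330 lower in the main fit. None of the 3 measured chaperones of the cytosolic receptor, HSP90AA1, HSP90AB1 and PTGES3, was called in any line, and their changes lay between -0.15 and 0.23. Of 13 other PAS family factors, BMAL1, the clock partner of CLOCK, rose in H2009 (0.57) and fell in H460 (-0.42). NPAS2, which can replace CLOCK, rose in H2009 (0.54), BMAL2 in H460 (0.44) and EPAS1, the hypoxia factor HIF2α, in A549 (0.50). HIF1A, which competes for ARNT, was not called in any line, and the largest of its changes was 0.09 in size.

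Of 7 measured coregulators, NRIP1, a corepressor that binds nuclear receptors, fell in H2009 (-0.56) and H441 (-0.76), and the coactivator NCOA2 fell in H460 (-0.52). Of 7 measured genes listed with the xenobiotic battery, NQO1, a quinone reductase, rose in H2009 (0.43). ALDH3A1, an aldehyde dehydrogenase long used as a second readout of the receptor, fell in H441 (-0.57) and rose in A549 (0.40), and its change was 0.28 (adjusted p = 0.0983) in H2009 and 0.05 (adjusted p = 0.88) in H460. NFE2L2, which encodes NRF2, rose in H441 (0.49), where CYP2S1, a P450 of extrahepatic epithelia, fell (-0.36). CYP2S1 had uncalled changes of like size in A549 (-0.36, adjusted p = 0.0961 from limma) and H460 (-0.32, adjusted p = 0.141), and one of 0.02 in H2009.

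**Figure D4:**
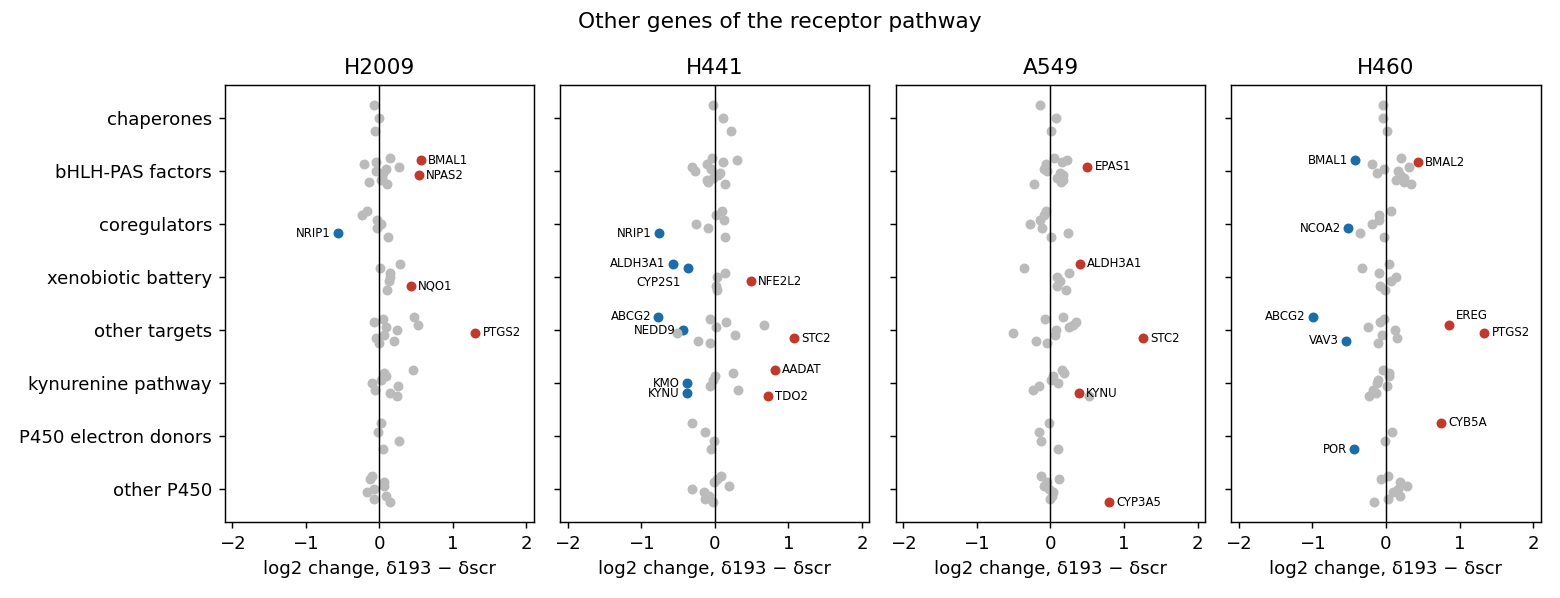
Log2 change with δ193 (horizontal axis) of 63 further genes of the receptor pathway, by list (vertical axis) and line (panels). Named red points were called higher and blue points lower, and grey points did not pass; PTGS2 in H460, at 1.33, lies farthest to the right and ABCG2 in H460, at -0.995, farthest to the left.

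Among 11 other genes reported as receptor targets, PTGS2, the inducible cyclooxygenase, rose by 1.30 in H2009 and 1.33 in H460. STC2, a secreted glycoprotein, rose by 1.08 in H441 and 1.26 in A549. ABCG2, a drug efflux pump, fell in H441 (-0.77) and H460 (-0.995), and EREG, an EGF receptor ligand, rose in H460 (0.85). EREG had uncalled changes in the same direction of 0.52 in H2009, 0.67 in H441 and 0.31 in A549 (adjusted p = 0.285, 0.0649 and 0.672 from limma). NEDD9, a scaffold of focal adhesions, fell in H441 (-0.43), and VAV3 fell in H460 (-0.54). Both read low there, NEDD9 at 4.16 with δscr and 3.73 with δ193 and VAV3 at 4.40 and 3.86, under the median gene at 5.79. The targets that rose in H460, PTGS2 and EREG, thus stood beside others that fell there, ABCG2 and VAV3.

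Enzymes that make or remove tryptophan-derived ligands were called in H441 and A549. In H441, TDO2, which opens the kynurenine pathway, rose (0.72), as did AADAT (0.82), which turns kynurenine into kynurenic acid, and KMO (-0.38) and KYNU (-0.38), which take kynurenine down other routes, fell. TDO2 read 4.34 with δscr and 5.065 with δ193 there, under the median gene at 5.79. Its uncalled changes were 0.25 in H2009, 0.53 in A549 and -0.24 in H460. KMO read only 3.09 with δscr and 2.71 with δ193, close to PTPRC, a leukocyte marker, at 2.58 to 2.96. In A549 KYNU rose (0.39). Of 4 genes listed with the electron supply of P450, CYB5A rose (0.75) and POR, the reductase that every CYP1 enzyme needs, fell (-0.43), both in H460. Of 9 other xenobiotic P450 genes, CYP3A5 rose in A549 (0.79) and none was called in the other lines.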

How the data were processed

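Total RNA of 24 cultures (8 groups of 3) was hybridized to Affymetrix human gene arrays. The authors deposited log2 values computed by RMA with Affymetrix Power Tools, per the labels, and the sources used here give no versions. RMA equalizes the arrays, so a shift of most genes in 1 direction would be removed, and the number of arrays limits precision. Array medians lay between 4.78 and 4.91, and no 2 arrays were copies (highest correlation 0.9962).

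Of 33252 clusters, 19460 list 1 symbol in the array's annotation table (19429 updated through the Entrez ID), 1754 list several and 12038 none. For 769 genes with several clusters, the one with the highest mean was kept, leaving 18417 genes. Each of the 6 measured members has 1 such cluster.

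Values were fitted in limma 3.58.1 (R 4.3.3) with 1 coefficient per group, lmFit and eBayes, and contrasts for changes, differences of changes and δscr levels. The Benjamini-Hochberg adjustment ran over all genes within each contrast. Calls needed an adjusted p under 0.05 and, except for differences of changes, a log2 size of at least 0.32, the minimum fold in the study's methods. Pearson r over 24 arrays named the 5 genes most like AHR, TIPARP, CYP1A1 and CYP1B1, and called members of the pathway lists were named, at most 4 per list and line. The members and lists were chosen with earlier results of these data known. The scripts were tested on simulated data.

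Alternatives were the methods' t-test, other folds, each line alone, no H441 arrays, a trended and robust spread, array weights, equal medians, quantile normalization, genes above the median, the mean over clusters, replicate blocks, δscr arrays alone and each array left out. Clusters with several symbols could not replace a member's own, since no measured member has one. The mean, class difference and F test without H441 were added after the data were seen. P-values set a difference against the spread between replicates of a group, pooled over the lines in the main fit. They do not cover the spread between cell lines of a class.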

Additional observations from a re-analysis of the deposited data

Results flagged for a closer look

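The change with δ193 differed between at least 1 pair of lines for 3 of the 6 genes, by the test of the difference itself in limma with Benjamini-Hochberg adjustment. Over all genes, 3.51% to 9.40% passed in a pair of lines and 14.1% passed the F test. For CYP1B1 the F statistic over the 4 changes was 53.03, the K-ras dependent lines differed from the independent ones by -1.499, and 5 of 6 pairs differed: H2009 minus H441 by 0.79, H2009 minus A549 by -1.13, H2009 minus H460 by -1.08, H441 minus A549 by -1.92 and H441 minus H460 by -1.87. For TIPARP, the change in H2009 minus that in H441 was -0.72, and for AHR, the change in H2009 minus that in H460 was -0.62. Neither gene passed the F test over the 4 changes (adjusted p = 0.0544 and 0.073). The AHR difference was lost in 17 of 24 fits without 1 array and with quantile normalization (adjusted p = 0.0705). CYP1B1 fell in H441, rose in A549 and H460 and had a change of 0.00 in H2009.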

How the results depend on the processing

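Of 4482 values of 137 results recomputed under 40 other settings, 4302 kept their side of the threshold. Many of these fits could not alter the size of a result. A change kept its size when an array of another line was left out, and the mean over clusters left the members' values as they were. The count of kept values is therefore not a count of independent checks. Counts of calls were scored as kept when they moved by a factor of at most 1.5. Of the values called in the main fit or in the other setting, 0 reversed their sign. The sign of uncalled values was not scored, and the AHR change in H441 ran from -0.13 to 0.26 with 1 array left out. Of the 6 genes, 1, 2, 2 and 3 were called in H2009, H441, A549 and H460. With the methods' t-test unadjusted, H441 had 1, and with the Benjamini-Hochberg adjustment H2009 had 0, H441 0, A549 1 and H460 2. With a minimum fold of 1.5, H441 had 1 and H460 2, with each line alone H441 had 1, and with quantile normalization A549 had 1 and H460 2. The class difference, called for 1 gene, was called for 2 with array weights and 3 without H441. The F test, also called for 1 gene, was called for 3 with a trended and robust spread, array weights, equal medians or no H441 arrays. The share of all genes called was not computed for either test under these settings. Between pairs of lines, array weights gave 2 for H2009 against A549, 3 for H441 against H460 and 1 for A549 against H460, which also had 1 without H441, and quantile normalization gave 1 for H2009 against H460.

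Whether the replicate numbers pair the samples was not settled by the correlations of same-number arrays within a line, which ran from -0.09 to 0.28. In H2009 the same-number values were 0.28, 0.16 and 0.10, and different-number values ran from -0.29 to 0.17. The replicate block within a line left 1 call in A549 and 2 in H460 (CYP1A1 was lost in both) and gave 2 for the class difference and 3 for the F test, and the replicate block over all arrays gave 2 for the F test.

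Leaving out 1 array gave 0 to 1 calls in H2009 (0 without δ193 replicate 1), 1 to 2 in H441 (1 without δ193 replicate 2), 1 to 2 in A549, 1 to 3 in H460 (1 without δ193 replicate 1), 1 to 2 for the mean, 1 to 2 for the class difference, 1 to 3 for the F test and 1 to 2 for H2009 against H460, H441 against A549 and H441 against H460. The δscr levels of H441 and A549 gave 2 to 5.

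Of the further pathway genes, 5, 11, 5 and 9 were called in H2009, H441, A549 and H460. The methods' t-test called 8, 6 and 8 in the first 3 lines, and 1, 0 and 0 after adjustment. A minimum fold of 1.5 left 1, 5, 2 and 4. Each line alone gave 8 in H2009 and 0 in H441, where 896 and 401 of all 18417 genes were called. With no H441 arrays or with array weights, 8 were called in both H2009 and A549. Leaving out 1 array gave 5 to 8 in H2009 and 2 to 7 in A549. The 3 arrays per group and the low signal of CYP1A1 and CYP1A2, both under the median gene, limit what can be told.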
